A study of Mus musculus with 4 samples.

Results

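The 10 genes examined encode the core of the G1 restriction machinery: the CDK inhibitors Cdkn1a, Cdkn1b, Cdkn1c, Cdkn2c and Cdkn2d, the D-type cyclins Ccnd1, Ccnd2 and Ccnd3, and their kinases Cdk4 and Cdk6. They were taken by name, out of 21728 annotated protein-coding genes, by a rule that uses no measured value, although earlier results of these data were known when the set was chosen. Their loci, each the gene body with 20 kb on each side, held 39 accessible regions (peaks) of the WT list and 49 of the KO list, which merged into 53 of the 45475 regions found on the autosomes and chromosome X.

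The data were ATAC-seq peak lists, in which a transposase marks open DNA, from hematopoietic stem cells (HSCs) of adult C57BL/6 mice. By the labels the cells were bone marrow LSK cells sorted as CD150+, CD34- and CD48-, with 5000 cells per transposition, while the study's ATAC-seq methods name only CD150+ and CD48- for this sort. The 2 WT samples were from Med23-floxed mice that lacked cre, and the 2 KO samples from Med23-floxed mice that carried Mx1-cre, so the floxed allele was present in both genotypes. In the study Mx1-cre was switched on by injecting poly(I:C), an inducer of interferon, and whether the WT mice of these samples were injected too is not given in the labels. The Mx1 promoter responds to interferon in many cell types, so deletion is not restricted to HSCs. Med23 encodes a subunit of the Mediator complex, which connects transcription factors with RNA polymerase II. Both samples of a genotype are represented by a single peak list in the labels, so the comparison was between 1 list and 1 list: there was no replicate check, no difference was tested, and the depth of the libraries is unknown.

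D-type cyclins bind Cdk4 or Cdk6, and the active kinase phosphorylates the retinoblastoma protein and releases E2F factors, which drive the genes of DNA replication. Inhibitors of the INK4 family (Cdkn2c, or p18, and Cdkn2d, or p19) bind Cdk4 and Cdk6 directly, while those of the Cip/Kip family (Cdkn1a, or p21, Cdkn1b, or p27, and Cdkn1c, or p57) bind cyclin-CDK complexes. HSCs are mostly quiescent; p57 and p27 are known to hold them in that state, and the level of Cdk6 is known to govern how readily they leave it.

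The sequences below are the 150 bases around the summits of regions at Cdk6, Ccnd3 and Ccnd1 that differed by 1.5-fold or were called in KO alone, with the shared region just upstream of Ccnd1 and the strongest region of Cdkn1a. They are shown because the results below turn on them. Distances are from the 5′ end of the gene. All lie in introns or between genes, and none overlaps an exon. Capitals mark matches, on either strand, to the motifs RUNX (TGTGGT), AP-1 (TGANTCA), CEBP (TTGCNNAA), E-box (CAGNTG), STAT (TTCNNNGAA), ETS (GGAAGT), GC box (GGGCGG), E2F (TTTNNCGC) and NFY (CCAAT).
Cdk6 intron, 153.09 kb (mm10, chr5:3494497-3494646, plus strand): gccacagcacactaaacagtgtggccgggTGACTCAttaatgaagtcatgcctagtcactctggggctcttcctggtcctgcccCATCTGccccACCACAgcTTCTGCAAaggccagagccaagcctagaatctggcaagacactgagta
Cdk6 intron, 175.42 kb (mm10, chr5:3516832-3516981, plus strand): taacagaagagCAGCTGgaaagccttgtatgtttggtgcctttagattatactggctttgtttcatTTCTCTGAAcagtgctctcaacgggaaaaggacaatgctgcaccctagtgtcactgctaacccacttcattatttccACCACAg
Cdk6 intron, 92.08 kb (mm10, chr5:3433494-3433643, plus strand): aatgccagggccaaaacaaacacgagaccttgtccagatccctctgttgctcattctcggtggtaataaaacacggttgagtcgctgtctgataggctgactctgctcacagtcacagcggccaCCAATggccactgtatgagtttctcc
Cdk6 intron, 17.48 kb (mm10, chr5:3358887-3359036, plus strand): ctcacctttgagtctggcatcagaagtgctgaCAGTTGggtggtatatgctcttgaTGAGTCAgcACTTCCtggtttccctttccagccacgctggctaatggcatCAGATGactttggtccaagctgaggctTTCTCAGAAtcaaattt
Ccnd3 intron, 3.04 kb (mm10, chr17:47508013-47508162, plus strand): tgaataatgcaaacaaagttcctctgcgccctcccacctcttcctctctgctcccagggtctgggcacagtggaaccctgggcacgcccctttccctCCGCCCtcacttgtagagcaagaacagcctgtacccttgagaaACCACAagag
Ccnd1 intron, 2.20 kb (mm10, chr7:144937646-144937795, plus strand): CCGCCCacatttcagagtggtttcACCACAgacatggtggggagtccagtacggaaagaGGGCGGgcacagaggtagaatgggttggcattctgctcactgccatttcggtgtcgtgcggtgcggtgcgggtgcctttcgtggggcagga
Ccnd1 upstream, 1.71 kb (mm10, chr7:144941562-144941711, plus strand): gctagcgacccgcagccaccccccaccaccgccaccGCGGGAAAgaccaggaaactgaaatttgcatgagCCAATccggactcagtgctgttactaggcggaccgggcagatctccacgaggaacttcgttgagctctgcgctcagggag
Cdkn1a intron, 4.54 kb (mm10, chr17:29095437-29095586, plus strand): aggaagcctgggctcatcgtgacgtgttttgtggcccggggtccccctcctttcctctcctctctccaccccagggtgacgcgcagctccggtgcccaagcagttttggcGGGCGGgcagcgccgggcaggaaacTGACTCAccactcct

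The Cdk6 window at 153.09 kb held RUNX, AP-1, CEBP and E-box matches, and that at 17.48 kb held ETS, AP-1, STAT and 2 E-box matches. The Cdk6 window at 92.08 kb held only an NFY match, and that at 175.42 kb held RUNX, E-box and STAT matches. In windows of this length around all 45475 summits, a RUNX match occurred in 17.1%, AP-1 in 6.61%, CEBP in 5.90%, an E-box in 31.5%, STAT in 4.15%, ETS in 24.1%, a GC box in 20.5%, E2F in 2.36% and NFY in 18.6%. A match is a description of the letters and not of a bound factor.

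For 3 members whose annotated start lay in a region of both lists, the 150 bases immediately upstream of the gene are shown on the strand of the gene, 5′ to 3′. Capitals mark the GC box, NFY and RUNX matches as above, and the Myc E-box (CACGTG), the site recognised by Myc and its relatives.
Cdk4 (mm10, chr10:127063384-127063533, plus strand): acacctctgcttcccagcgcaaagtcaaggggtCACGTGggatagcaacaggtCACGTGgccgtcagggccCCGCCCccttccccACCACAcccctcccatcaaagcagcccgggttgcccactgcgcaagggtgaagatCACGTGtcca
Cdkn1b (mm10, chr6:134920251-134920400, plus strand): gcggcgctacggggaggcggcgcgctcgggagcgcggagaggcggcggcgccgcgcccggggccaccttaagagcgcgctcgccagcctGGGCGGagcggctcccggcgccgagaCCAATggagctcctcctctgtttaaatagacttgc
Cdkn2d (mm10, chr9:21291408-21291557, minus strand): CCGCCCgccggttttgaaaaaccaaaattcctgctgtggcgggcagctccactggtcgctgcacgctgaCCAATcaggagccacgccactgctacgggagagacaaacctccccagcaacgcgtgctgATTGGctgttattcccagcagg

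The Cdk4 stretch held 3 Myc E-boxes, a number reached in the same stretch by 13 of 21728 protein-coding genes (0.0598%), while 4.75% of genes had at least 1. This motif was added to the search after the sequence had been seen. Upstream of Cdkn1b there were 1 GC box and 1 NFY match, and upstream of Cdkn2d 1 GC box and 2 NFY matches. A GC box was found upstream of 35.3% of genes, an NFY match upstream of 27.1% and a RUNX match upstream of 7.87%.

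Regions called in the KO list alone were more frequent at these loci than regions called in the WT list alone. Of the 53 regions, 35 (66.0%) were shared by the lists, 4 (7.55%) were found in WT alone and 14 (26.4%) in KO alone. Over all regions those shares were 64.8%, 18.1% and 17.2%. The split depended on how strong a peak had to be: with a −log10 q of at least 5 required, the KO-only share of the loci was 17.5% beside 19.9% over all regions, and the WT-only share was 2.50% beside 11.1%. At 10 or more, the KO-only share was 26.5% beside 22.4% and the WT-only share 0% beside 8.31%. Counted as peaks, 35 of 39 WT peaks lay in shared regions (89.7%, exact 95% interval 75.8 to 97.1), where 78.3% of all WT peaks did. Of 49 KO peaks, 35 did (71.4%, 56.7 to 83.4), where 79.3% of all KO peaks did. These intervals cover only the counting of peaks, which are not replicates.

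Most regions found in 1 list were weak. Peak strength is given as the summit pileup, the number of sequenced tags stacked at the summit, which was recovered from the deposited values, and as the authors' fold enrichment over local background. The 4 WT-only regions had pileups of 8 to 15 and the 14 KO-only regions pileups of 7 to 26, where the lowest pileup of any peak was 6 in each list. Only 2 of the 14 KO-only regions reached a −log10 q of 10, 1 in an intron of Cdk6 and 1 at the start of Slc22a18 beside Cdkn1c. Absence from a list means that no peak was called and not that the DNA was closed.

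**Figure D1:**
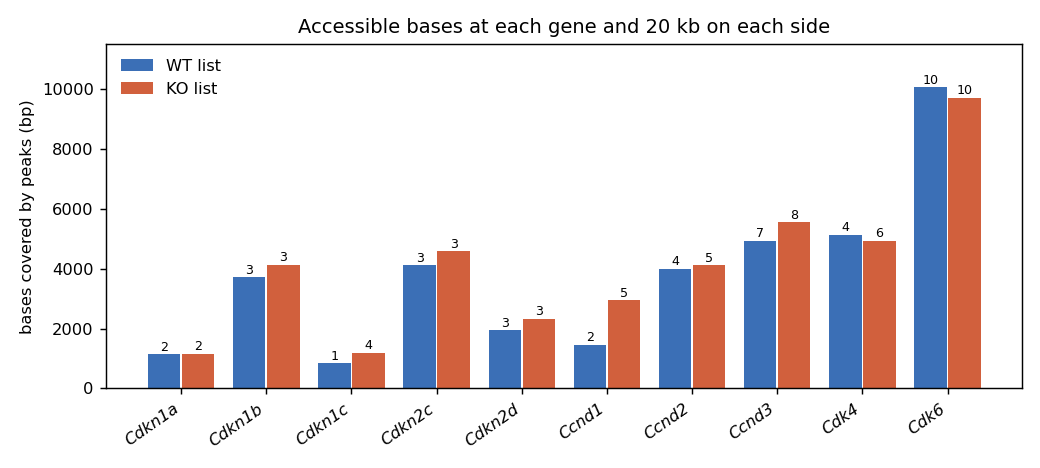
Bars give the bases covered by peaks (bp, from 0) in each gene with 20 kb on each side, for each of the lists, with the number of peaks above each bar. Ccnd1 had 1460 bp in 2 WT peaks and 2944 bp in 5 KO peaks, while Cdk6, the longest gene, had the most bases in both lists and fewer in KO.

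Peaks at the 10 loci covered 37296 bp in WT against 40609 bp in KO, 3313 bp more in KO. Covered bases were higher in KO at 8 of the 10 genes and lower at Cdk4 and Cdk6, where 49.0% of the 17639 genes with a peak in their window had more in KO and 50.9% fewer. These directions were not stable: with other q thresholds, windows or neighbouring starts left out (6 settings), the sign turned at least once at Cdkn1b, Cdkn1c, Ccnd3, Cdk4 and Cdk6, and at Cdk4 it was positive in 5 of the 6. It was positive in all 6 at Cdkn1a, Cdkn2c, Cdkn2d, Ccnd1 and Ccnd2. Under the q thresholds among these settings, KO-only regions were more frequent than WT-only regions over all regions too. The median difference of the 10 genes was 367.5 bp, beside a median of -11 bp and quartiles of -350 and 320 bp over those genes. The plot of covered bases shows that the largest difference was at Ccnd1, where it was 1484 bp and stood at the percentile 98.3 of all genes. The next highest percentile was 87.7, of Ccnd3. Peak numbers were higher in KO at 5 genes and equal at 5. The same count was not made over all genes, so it has no share to be read against.

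**Figure D2:**
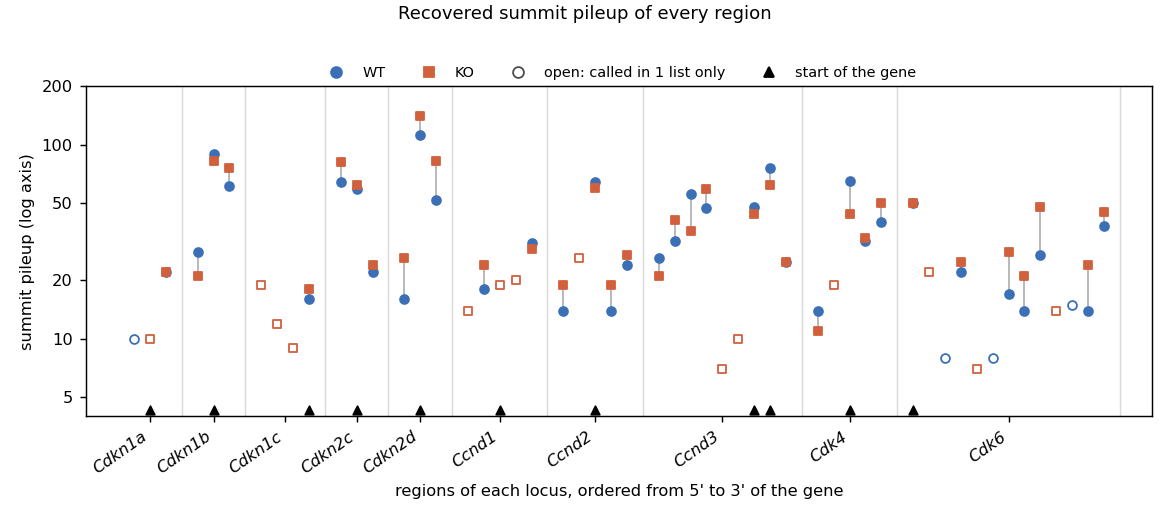
Each column is 1 of the 53 regions, grouped by gene, and the log axis gives the summit pileup in WT (circles) and KO (squares). Open symbols are regions called in 1 list only, which lie between 7 and 26, and triangles mark regions at a start of the gene.

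In 34 regions that held 1 peak of each list, the 2 pileups were compared as a log2 KO to WT ratio after division by the genome-wide background of each list (1.19 in WT and 1.13 in KO). The median ratio at the loci was 0.26, with quartiles of 0.02 and 0.49, and over all 28909 such regions it was 0.17 with quartiles of -0.10 and 0.43. All 34 ratios lay within the central 95% of the ratios of all regions (-0.65 to 1.01), and 20 lay above the overall median. Relative to that median, 4 regions were at least 1.5-fold higher in KO, where 7.63% of all regions were, and 2 were at least 1.5-fold lower, where 7.91% were. None of these 6 passed 1.5-fold when the authors' fold enrichments were compared in the same way, relative to their own overall median log2 ratio of 0.26. By fold enrichment 1 other region was higher in KO, at the start of Kri1 beside Cdkn2d, where 3.14% of all regions were, and 0 were lower, where 6.05% were.

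At the loci, regions at starts were shared more often than regions away from starts, and their ratios differed too. The difference in presence was also found over all regions, and the shared part of each class at the loci was near that of all regions. Of the 23 regions at a start of any gene, 20 were shared, 0 were WT-only and 3 KO-only, where 87.2%, 6.73% and 6.04% of all start regions were. Of the 30 away from starts, 15 were shared, 4 WT-only and 11 KO-only, where 54.5%, 23.2% and 22.3% were. The regions at a start of a member had a median log2 ratio of -0.01 (9 regions), those at the start of a neighbouring gene 0.29 (10 regions), and those away from any start 0.50 (15 regions). Over all regions the medians were 0.09 at starts (12164 regions) and 0.22 away from them (16745 regions). Members' starts thus had a median below, and their distal regions a median above, that of the same class, and neither difference was tested.

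**Figure D3:**
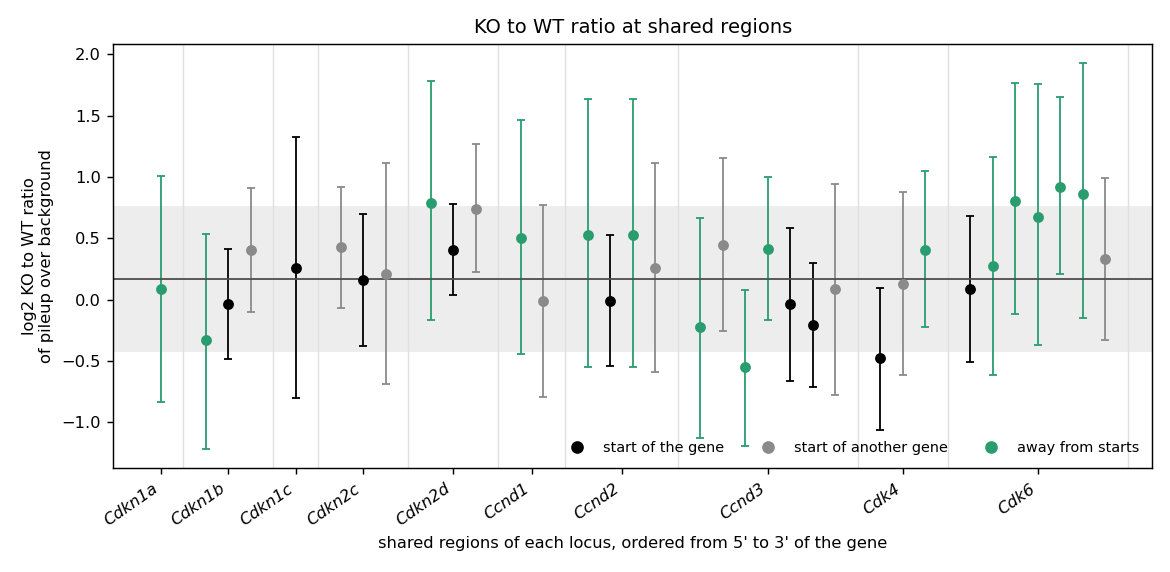
Points give the log2 ratio (KO to WT) of background-scaled pileup in the 34 shared regions with 1 peak of each list, with exact 95% intervals that cover counting error only. The line is the median of all regions (0.17), the shaded band spans 1.5-fold on each side of it, and the regions above the band lie at Cdkn2d and Cdk6 and those under it at Ccnd3 and Cdk4.

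Among the 5 CDK inhibitors, 11 of 16 regions were shared, 1 was WT-only and 4 were KO-only. Over all regions 64.8% were shared, 18.1% WT-only and 17.2% KO-only. Covered bases of the inhibitors were 11741 in WT and 13380 in KO. The median log2 ratio of their 11 compared regions was 0.26 (range -0.33 to 0.79), with 7 above the overall median of 0.17.

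Cdkn2d (p19) had 3 shared regions, each with more pileup in KO. At its own start, where the region spans chr9:21290880-21291721, the pileups of 112 in WT and 140 in KO were the highest of any region of the 10 genes. The log2 ratio there was 0.41 (95% interval 0.04 to 0.78), and the fold enrichment was 8.43 in WT and 13.0 in KO. The interval excludes 0 but includes the overall median of 0.17. At the start of the neighbouring Kri1 pileups were 52 and 82, a log2 ratio of 0.74 (0.22 to 1.27). The third region, in an intron of Ap1m2, had pileups of 16 and 26 and a log2 ratio of 0.79 (-0.17 to 1.78). This was past 1.5-fold relative to the overall median but with an interval that includes 0. Relative to the median of all regions away from starts, 0.22, it fell short of 1.5-fold.

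The other INK4 inhibitor, Cdkn2c (p18), also had all of its regions in both lists. Its start region, chr4:109665251-109667340, had pileups of 59 in WT and 62 in KO and a log2 ratio of 0.16 (-0.38 to 0.70), which is the overall median within counting error. The region with the highest pileup there was at the start of Faf1, with pileups of 64 and 81 and fold enrichments of 11.0 and 15.4 in WT and KO.

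Cdkn1b (p27) had a wide accessible start in both genotypes. The region, chr6:134919699-134921234, had pileups of 89 (WT) and 82 (KO), fold enrichments of 8.76 and 10.1, and a log2 ratio of -0.03 (-0.48 to 0.42). Of its other regions, the one 3.28 kb upstream had pileups of 28 and 21 and the one at the start of the noncoding RNA Lockd had pileups of 61 and 76. Neither ratio had an interval that excludes 0, and Cdkn1b had 3 peaks in each list.

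At Cdkn1c (p57) the lists differed in number of peaks, 1 in WT and 4 in KO. The region at the start, chr7:143460954-143461826, was in both, with pileups of 16 in WT and 18 in KO and a log2 ratio of 0.26 (-0.80 to 1.32). It was 845 bp wide in WT and 308 bp wide in KO. The 3 KO-only regions lay 4.13, 5.20 and 12.62 kb upstream with pileups of 9, 12 and 19, and the last of them was at the start of Slc22a18 with a fold enrichment of 6.46. Covered bases at the locus were 845 in WT and 1195 in KO.

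At Cdkn1a (p21), the inhibitor induced by p53, the strongest region was in an intron, chr17:29094835-29095701, with a pileup of 22 in each list and a log2 ratio of 0.09 (-0.84 to 1.01). A weak peak over the starts at 29093769 and 29093781 was called in KO only, with a pileup of 10 and a fold enrichment of 4.06. A WT-only peak, 9.16 kb upstream, had a pileup of 10 and a fold enrichment of 4.82. The pileups at Cdkn1a thus summed to 32 in each list. The locus held 2 matches to the p53 motif, taken as a pair of CATG with 6 bases of any kind between them, of which CATGTCTTGACATG at chr17:29090931-29090944 begins at -45 bp from the 5′ end of the gene and 2838 bp upstream of the start at 29093769. Neither match was covered by a peak in either list. A match within 5000 bases upstream was found for 17.6% of protein-coding genes.

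**Figure D4:**
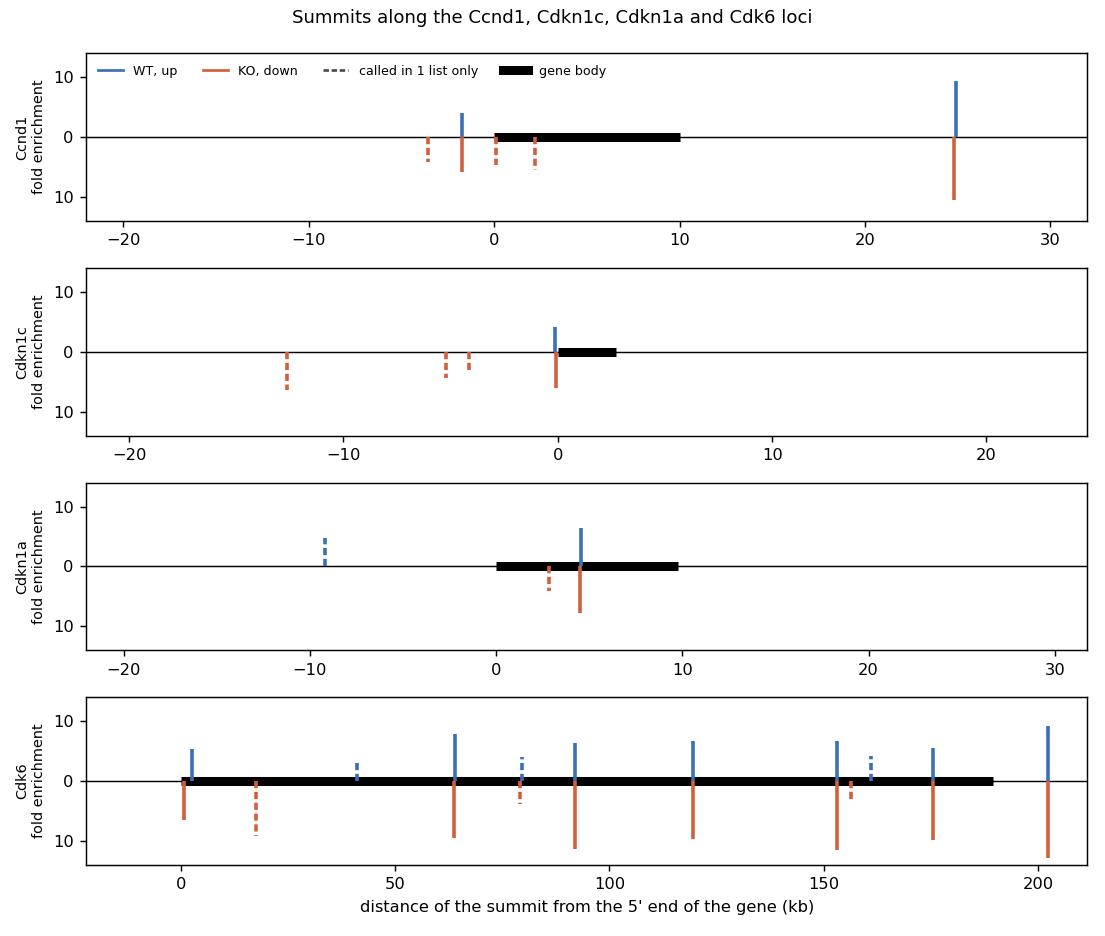
Each panel plots the summits of 1 locus by distance from the 5′ end of the gene (kb), with the authors' fold enrichment upward for WT and downward for KO, dashed where the region was called in 1 list only. At Ccnd1 and Cdkn1c the dashed lines are all KO, at Cdkn1a there is 1 of each, and at Cdk6 there are 3 of each.

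Among the 3 D-type cyclins, 13 of 19 regions were shared, 6 were KO-only and none was WT-only, where 64.8%, 17.2% and 18.1% of all regions were. Covered bases were 10379 in WT and 12597 in KO. The median log2 ratio of their 13 compared regions was 0.09 (range -0.55 to 0.53), with 6 above the overall median.

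Ccnd1 (cyclin D1), which links growth factor signals to Cdk4 and Cdk6, had 2 peaks in WT and 5 in KO, as the map of its locus shows. At the gene's start a peak was called in KO only, chr7:144939599-144939902, with a pileup of 19 and a fold enrichment of 4.63. A KO-only peak in an intron, 2.20 kb from the 5′ end, had a pileup of 20 and a fold enrichment of 5.50, and one 3.55 kb upstream had a pileup of 14 and a fold enrichment of 4.20. Between them and in both lists was a region 1.71 kb upstream, with pileups of 18 in WT and 24 in KO and a log2 ratio of 0.50 (-0.44 to 1.47). The remaining region, 24.90 kb from the 5′ end, lay at the start of LTO1 and had pileups of 31 and 29. Around the start of Ccnd1 the KO list thus held all 4 regions and the WT list 1 of them, with KO pileups of 14 to 24. In all 6 other settings of window, q threshold and neighbouring starts, covered bases at Ccnd1 were higher in KO, by 604 to 1568 bp.

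Ccnd2 (cyclin D2) had 4 peaks in WT and 5 in KO. The region over its starts, chr6:127150959-127152747, had pileups of 64 and 60 and a log2 ratio of -0.01 (-0.54 to 0.52). Its summit lay 1178 bp from the nearest start of the basic annotation in WT and 905 bp in KO. A rule that asks for a summit within 1000 bp thus counted it in KO alone, although the peaks of both lists covered starts. The 5′ end of the gene is not among those starts, and from it the summits lay at -45 bp in WT and 228 bp in KO. A KO-only peak 2.82 kb upstream had a pileup of 26, the highest of the KO-only regions, but a fold enrichment of only 3.03. The strongest other region lay at the start of Tigar, with pileups of 24 and 27, fold enrichments of 8.15 and 9.61 and a log2 ratio of 0.26 (-0.59 to 1.11). Shared regions in an intron and 10.84 kb upstream both had pileups of 14 in WT and 19 in KO.

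Ccnd3 (cyclin D3) has starts far apart, and the data differed among them. The 4 upstream starts, from 47505051 to 47505149 on chromosome 17, were covered by no peak in either list. The internal start at 47593470 lay in a region with pileups of 48 in WT and 44 in KO and a log2 ratio of -0.04 (-0.66 to 0.58). The next region, close to the start at 47596068, had the highest pileup of the locus, 76 in WT and 62 in KO (log2 ratio -0.21, -0.72 to 0.30), and its peak reached that start in WT but not in KO.

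In the first 20 kb of Ccnd3 a pair of intronic regions went opposite ways. At 3.04 kb, chr17:47507641-47508501, pileups were 56 (WT) and 36 (KO). The log2 ratio of -0.55 (-1.20 to 0.08) was past 1.5-fold lower, and the fold enrichment was 8.24 in WT and 7.28 in KO. At 16.66 kb the pileups were 47 and 59, with fold enrichments of 10.4 and 13.1. The KO-only regions of Ccnd3 had pileups of 7 and 10. The shared region at the upstream edge of the window counted as shared through a KO peak that lay just outside the window.

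The CDK genes held 18 regions, of which 11 were shared, 3 were WT-only and 4 KO-only. Over all regions 64.8% were shared, 18.1% WT-only and 17.2% KO-only. Covered bases of the CDK genes were 15176 in WT and 14632 in KO. The median log2 ratio of their 10 compared regions was 0.37 (range -0.48 to 0.92), with 7 above the overall median. The lowest was at the start of Cdk4.

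At the Cdk4 start, chr10:127063218-127064291, pileups were 65 (WT) and 44 (KO). The log2 ratio was -0.48 (-1.06 to 0.10), past 1.5-fold lower relative to the overall median, and the fold enrichment was 9.75 in WT and 9.0 in KO. Relative to the median of all start regions, 0.09, the log2 ratio fell short of 1.5-fold lower. The region contains the 3 Myc E-boxes printed above. The intervals of all compared regions of the locus, the Cdk4 start among them, included 0. The others had pileups of 32 and 33 at the start of Tspan31 and of 40 and 50 in an intron of Agap2. A KO-only peak in an intron of March9 had a pileup of 19 and a fold enrichment of 5.17. At the start of Cyp27b1, 1 WT peak with a pileup of 14 faced 2 KO peaks with pileups of 8 and 11.

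Cdk6, whose gene body spans 189524 bp, had 10 peaks in each list. Its start lay in a region 3613 bp wide, chr5:3341148-3344760, with a pileup of 50 in each list and a log2 ratio of 0.09 (-0.51 to 0.68). The WT and KO summits in it were 1937 bp apart, and the peaks of both lists covered both annotated starts.

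The intronic regions of Cdk6 had more pileup in KO in each of the 5 that both lists shared, with a summed pileup of 94 in WT and 146 in KO and log2 ratios of 0.27 to 0.92. At 153.09 kb, chr5:3494316-3494776, pileups were 27 (WT) and 48 (KO), with a log2 ratio of 0.92 (0.21 to 1.65), and the fold enrichment was 6.75 and 11.5. This interval excluded both 0 and the overall median, and the ratio was the highest of the 34 at the 10 loci. Among those 34, 3 intervals excluded 0 and 4 excluded the overall median, those at the Cdk4 start and the Ccnd3 intron from below. The same counts were not made over all regions. At 92.08 kb the pileups were 17 and 28, a log2 ratio of 0.81 (-0.11 to 1.77), and at 175.42 kb they were 14 and 24, a log2 ratio of 0.86 (-0.15 to 1.93). These 3 were the regions past 1.5-fold higher at the locus, and 2 of their intervals include 0.

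Peaks in 1 list only were also intronic at Cdk6. The strongest KO-only peak, 17.48 kb from the 5′ end (chr5:3358818-3359355), had a pileup of 22, a fold enrichment of 9.25 and a −log10 q of 16.2, the highest fold enrichment and q value among the KO-only regions of the 10 genes. The strongest WT-only peak, at 161.13 kb, had a pileup of 15 and a fold enrichment of 4.17. The other 4, 2 in each list, had pileups of 7 to 14. Covered bases at Cdk6 were 10052 in WT and 9702 in KO, but with a −log10 q of at least 5 required they were 779 bp higher in KO, and with at least 10 they were 2767 bp higher. These thresholds favoured KO over all regions too. KO-only shares were 19.9% and 22.4% there, beside WT-only shares of 11.1% and 8.31%. Covered bases of all genes were not compared at these thresholds. The remaining shared region, with the highest summed pileup of the locus away from its start, lay at the start of Fam133b and had pileups of 38 and 45 and a log2 ratio of 0.33 (-0.33 to 0.99).

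The starts of the other genes of the G1/S pathway were compared as a list of 26 genes, among them the retinoblastoma and E2F families, the E- and A-type cyclins, Cdk2 and the INK4 inhibitors Cdkn2a and Cdkn2b. A peak with its summit within 1000 bp of a start was in both lists for 24 of them and in neither list for E2f2 and Mnat1. By the same rule it was in both lists for 6 of the 10 members (56.3% of all protein-coding genes), in WT alone for 1 (3.11%) and in KO alone for 3 (2.67%). The WT-only one was Cdk6 and the KO-only ones were Cdkn1a, Ccnd1 and Ccnd2. At Cdk6 and Ccnd2 the summits of the lists lay apart within a wide region that both shared. These calls rest on the starts of the basic annotation, and with distances from the 5′ end of the gene they would differ. Counting any peak that covers a start, a start peak was in both lists for 8 of the 10 members, all but Cdkn1a and Ccnd1. The median log2 ratio of the 24 pathway genes was 0.01 (range -0.65 to 0.38), with 6 above the overall median. All 24 are start regions, and the median over all start regions, 0.09, was itself below the overall median. Rb1, which encodes the substrate of the cyclin D kinases, had pileups of 30 in WT and 18 in KO and a log2 ratio of -0.65 (-1.58 to 0.24). Cdk2, the partner of the E- and A-type cyclins, had pileups of 46 and 31 and a log2 ratio of -0.48 (-1.19 to 0.20). Both were past 1.5-fold lower relative to the overall median, with intervals that include 0, and none was past 1.5-fold higher. Relative to the median of all start regions, Rb1 was still past 1.5-fold lower and Cdk2 fell short of it. These 2 of 24 are 8.33%, near the 7.91% of all regions past that fold. By fold enrichment, which was 7.96 in WT and 6.88 in KO at Rb1 and 9.61 and 8.93 at Cdk2, 0 of the 24 were past 1.5-fold in either direction.

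The sequence around the summits was set beside that of all regions in windows of 200 bp. A GC box was in 21 of 53 windows at the 10 loci (39.6%; 23.8% over all regions), and away from starts in 8 of 30 (26.7%; 9.28% over all). At starts it was in 13 of 23 (56.5%), near the 55.5% of all start regions. A RUNX match was in 12 of 53 (22.6%; 20.5%), and an ETS match in 8 of 53 (15.1%; 28.2%). An E2F match was in 3 of 53 (5.66%; 3.10%), which were the regions 3.28 kb upstream of Cdkn1b, 1.71 kb upstream of Ccnd1 and 2.82 kb upstream of Ccnd2. It was in 3 of 30 windows away from starts (10%; 2.05%) and in 0 of 23 at starts (5.40% of all start regions). None of the 53 held the p53 motif, which 0.334% of all windows held. The median GC content of the members' windows was 58.5% beside 52.5% over all regions. Away from starts it was 53.8% beside 49%, but at starts it was lower, 62.5% beside 64.5%. Start regions, which are rich in G and C, were 23 of the 53 at the loci and 14274 of all 45475.

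The labelled cell type was checked at the starts of marker genes. Of 10 stem cell markers, 7 had a start peak in both lists, where 56.3% of all protein-coding genes did. The count is near that share and says little about cell identity. Ly6a, Slamf1 and Procr, which encode surface proteins used in such sorts, had no start peak in either list. Of 19 markers of other cell types, 4 had a start peak in both lists, 2 (S100a8 and Ltf, of granulocytes) in WT only and 13 in neither. A start peak in WT only was found for 3.11% of all protein-coding genes. None of the 4 T cell markers had a start peak. Med23 itself had a start peak in both lists, with pileups of 64 and 85, which does not report on the deletion. A shift in the share of cells with open DNA at a site and a shift within each cell cannot be told apart in such data, and the part of other cell types in the values above was not tested.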

How the data were processed

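The labels give 2 WT and 2 KO samples and 1 peak list per genotype. Per the labels and the study's methods, the authors trimmed the reads with Trim Galore, aligned them to mm10 with Bowtie2, used Picard and called peaks with MACS2 without a fragment model. Versions, and whether replicates were pooled, are not given in the sources used here. The deposited columns are a display score (not used), the fold enrichment, and −log10 p and −log10 q values. In the deposited lists, the 37887 WT and 37615 KO peaks on the 19 autosomes and chromosome X were used.

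The fold enrichment (pileup plus 1 over background plus 1) and the Poisson −log10 p of each peak were solved for pileup and background. A whole pileup matched within 0.001 for 100% of WT and 99.9947% of KO peaks, and the solution was tested on simulated data. The genome-wide background was the median over the 1000 lowest values of each list. Regions were unions of peaks overlapping by at least 1 bp. Ratios used no pseudocount and have exact (Clopper-Pearson) 95% intervals. Annotation was the basic set of GENCODE M21 on GRCm38.p6, and sequences were read from that build. Starts were those of the transcripts in the basic set, while the 5′ end of a gene was that of its whole annotated body. A further upstream sequence is not reported here. A start peak had its summit within 1000 bp of an annotated start. Python 3.11.15, numpy 2.4.6, pandas 2.3.3 and scipy 1.17.1 were used.

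All 10 members were described. At each locus the text names the start regions, the strongest other region, regions past 1.5-fold and the strongest peak of 1 list only; of the pathway genes it names those without a start peak or past 1.5-fold. Members, lists and rules were chosen with earlier results of these data known. The Myc E-box, the rule that a peak covers a start and the 1.5-fold rule on fold enrichments were added after the values were seen, and so were the other regions named. Alternatives were the q threshold, the window, the overlap rule, the scaling, the distance to a start and leaving out starts of other genes.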

Additional observations from a re-analysis of the deposited data

How the results depend on the processing

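Requiring a −log10 q of 5 left 1 region in WT alone and 7 in KO alone. With at least 10, the WT list kept 25 peaks, 100% of them in shared regions, with 0 WT-only and 9 KO-only regions and 7529 bp more in KO. Over all regions the KO-only share at that threshold was 22.4% and the WT-only share 8.31%. With 10 kb on each side the difference in covered bases was 5324 bp, and with 50 kb there were 61 WT peaks and 8 WT-only regions. The gene body alone held 21 WT and 27 KO peaks and 8 KO-only regions. The share of WT peaks matched was 71.8% when 50% of each peak of a pair had to overlap, and 64.1% with summits within 100 bp, where the KO share was 49.0%. With a summit within 2500 bp of a start, 10 members had a start peak in both lists. The other 43 comparisons of a summary value stayed within 1.5 times of it or within its 95% interval. Ratios of fold enrichments, a choice made after seeing the data, put 1 region past 1.5-fold higher and 0 lower, in place of 4 and 2. The KO minus WT difference in covered bases changed sign at 5 genes. Requiring a −log10 q of 5 gave -68 bp at Cdkn1b, -209 bp at Cdkn1c, -536 bp at Ccnd3, 1106 bp at Cdk4 and 779 bp at Cdk6, and requiring 10 gave -536 bp at Ccnd3, 377 bp at Cdk4 and 2767 bp at Cdk6. Cdk4 had 822 bp more in KO within 10 kb, 325 bp in the gene body alone and 1258 bp without peaks at starts of other genes, where Cdkn1b had -57 bp. Cdkn1c had -211 bp within 50 kb. The cause was not tested. Differences at Cdkn1a, Cdkn2c, Cdkn2d, Ccnd1 and Ccnd2 stayed positive under all 6 of these settings. No paired analysis was possible because both replicates share 1 list, and for the same reason no sample could be left out.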
